A study of Mus musculus with 11 samples.

Results

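The circadian clock of the adrenal gland was followed through 10 genes, Arntl, Clock, Per1, Per2, Per3, Cry1, Cry2, Nr1d1, Nr1d2 and Dbp, taken as every probe of the bead array whose platform gene symbol is one of these names. They were represented by 17 of the 25697 probes, of which 15 were detected above the array's negative controls in at least 5 of 10 mice, so that 9 of the 10 genes had a measured level. Whole-adrenal RNA came from male mice aged 12 to 16 weeks: 5 homozygous mINDY-KO mice, in which both alleles of the plasma membrane citrate transporter Slc13a5 carry a deletion made with an Hprt1-Cre transgene, and 5 WT littermates. Both genotypes were on a C57B/6J backcross and ate standard chow. One array was run per mouse, except for WT replicate 1, which had 2 arrays that were averaged and counted as 1 mouse. No source used here gives the hour at which each adrenal was taken, so a mouse's position in the daily cycle was known only from the clock genes themselves.

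In mammals, ARNTL (BMAL1) and CLOCK bind DNA as a pair and switch on the Per and Cry genes, whose protein products return to the nucleus and silence that pair. A second loop runs through the nuclear receptors NR1D1 and NR1D2 (REV-ERB alpha and beta), which repress Arntl, so that Arntl transcripts peak at about the opposite time of day from those of Nr1d1 and Dbp. The adrenal cortex has such a clock of its own, which gates the response to corticotropin and helps to time the daily glucocorticoid peak. Per1 also responds within minutes to cAMP and to glucocorticoids.

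Each level is given in log2 units above the mean of all probes on the same array, so that values of a gene can be compared between mice but not between genes. Median signals of the arrays ran from 150 to 202 in WT and from 122 to 238 in mINDY-KO mice, with mINDY-KO replicates 3 and 4 the lowest at 127 and 122. Between 13260 and 13538 probes were detected on each array. The 2 arrays of WT replicate 1 differed by a median of 0.09 log2 units over the 13341 detected probes. The cortex and medulla markers that define the tissue were detected, at 7 of 8 and 8 of 10 genes. The probe of the deleted gene Slc13a5 was not above background on any array in either genotype (detection p from 0.0714 to 0.357), so it could not check the genotype labels.

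No clock gene differed between the genotypes past the test. Of the 15 detected probes, 0 reached an adjusted p of 0.05 in limma, against 2 of all 13341 probes (0.015%), and 0 separated the 5 mINDY-KO from the 5 WT mice without overlap, against 2.06% of all probes. At an unadjusted p under 0.05 stood 2 of the 15 probes, both of Per2 and lower in mINDY-KO mice, beside 10.9% of all probes and 6.65% that were lower. Over the 9 genes, each by its brightest probe, the mean was higher in mINDY-KO mice for 4 and lower for 5, where 44.1% of all probes were higher, with a median difference of -0.02, against -0.02 over all probes.

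**Figure D1:**
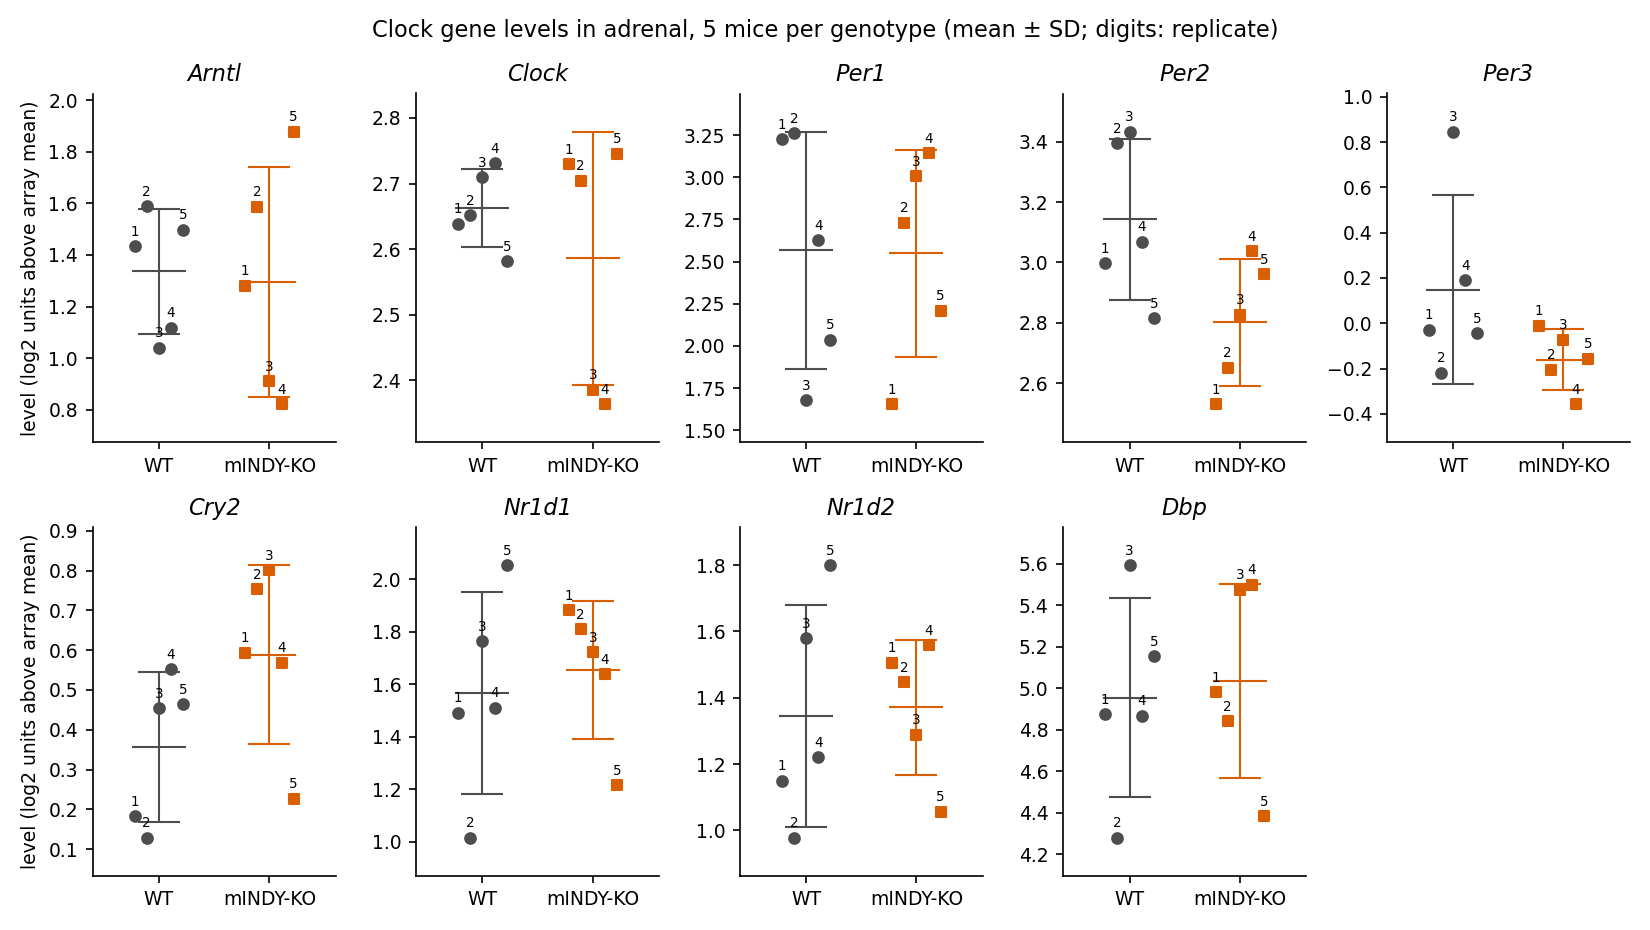
Level of each detected clock gene (brightest probe, log2 scale, relative to the mean of the array) in 5 WT (circles) and 5 mINDY-KO mice (squares), with the mean ± SD as a line with bars and the replicate number beside each point; each panel has its own vertical axis. The genotypes overlap for all 9 genes, and the mINDY-KO mice take both the highest and the lowest Arntl levels, 1.88 and 0.82.

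Arntl, the activator whose loss alone stops the clock, had levels of 1.43, 1.59, 1.04, 1.12 and 1.497 in WT replicates 1 to 5 and of 1.28, 1.59, 0.91, 0.82 and 1.88 in mINDY-KO replicates 1 to 5. The mINDY-KO mice enclosed the whole WT range, from 0.82 in replicate 4 to 1.88 in replicate 5. The means were 1.34 ± 0.24 in WT and 1.30 ± 0.45 in mINDY-KO (SD, n = 5 each), a difference of -0.04 (SE 0.18, adjusted p = 0.962 in limma). Without mINDY-KO replicates 3 and 4, the pair of arrays with the lowest median signal, the difference was 0.25 (adjusted p = 0.554).

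Clock, the DNA-binding partner of ARNTL, had the smallest spread of the 9 genes. Its WT levels were 2.64, 2.65, 2.71, 2.73 and 2.58, and its mINDY-KO levels were 2.73, 2.70, 2.39, 2.36 and 2.75. The 8 mice other than mINDY-KO replicates 3 and 4 lay within 2.58 to 2.75, and those mice, at 2.39 and 2.36, lay below all others. The difference was -0.08 (SE 0.09, adjusted p = 0.803), and 0.06 (adjusted p = 0.770) without them. The part of their low array signal in these values was not tested further. A dimmer Clock probe differed by 0.0017 (adjusted p = 0.997), with mINDY-KO replicate 4 again the lowest mouse and replicate 3 within the range of the others. The third Clock probe was detected on no array.

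Among the Period genes, which encode the repressors that pair with the cryptochromes, Per2 came nearest to a genotype difference. Per2 had levels of 2.998, 3.39, 3.43, 3.07 and 2.82 in WT mice and of 2.53, 2.65, 2.83, 3.04 and 2.96 in mINDY-KO mice. The 2 lowest mice were mINDY-KO and the 3 highest were WT, but the groups overlapped between 2.82 and 3.04. The difference was -0.34 (SE 0.13, adjusted p = 0.356). In RNA of a whole gland, fewer cells of a type and less RNA per cell cannot be told apart. The second Per2 probe differed by -0.28 (SE 0.13, adjusted p = 0.455). The third, detected in only 7 mice, differed by -0.12 (SE 0.08, adjusted p = 0.627), so that the 3 probes had the same sign at unequal sizes.

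Per1 had the widest spread of all the clock genes. In WT mice it stood at 3.23, 3.26, 1.68, 2.62 and 2.04, and in mINDY-KO mice at 1.66, 2.73, 3.01, 3.14 and 2.21. Both genotypes thus held high and low mice, with WT replicate 2 at the top and mINDY-KO replicate 1 at the bottom, 3.04-fold apart. Their means differed by -0.02 (SE 0.32, adjusted p = 0.991). The second Per1 probe put the same 3 mice lowest and WT replicate 2 highest, with a range of 2.89-fold and a difference of -0.04 (SE 0.26, adjusted p = 0.976).

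Per3, a Period gene that the mouse clock can run without, was high in a single animal. WT replicate 3 stood at 0.85, while the other WT mice lay at -0.03, -0.22, 0.19 and -0.04. The mINDY-KO mice lay at -0.01, -0.21, -0.07, -0.36 and -0.16. The difference of -0.31 (SE 0.16, adjusted p = 0.498) was -0.13 (adjusted p = 0.596) without WT replicate 3.

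Cry1 and Cry2 encode the cryptochromes, the strongest repressors of the ARNTL and CLOCK pair. The only Cry1 probe was detected on none of the 11 arrays (detection p from 0.516 to 0.950), and no level can be given for it. Cry2 stood at 0.18, 0.13, 0.45, 0.55 and 0.46 in WT and at 0.59, 0.75, 0.80, 0.57 and 0.23 in mINDY-KO mice. Of the mINDY-KO mice, 4 lay above the highest WT mouse and replicate 5 lay among the lowest. The difference was 0.23 (SE 0.11, adjusted p = 0.478).

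Nr1d1 and Nr1d2, the repressors of Arntl, had nearly the same order of mice by their brightest probes. Nr1d1 levels were 1.49, 1.02, 1.76, 1.51 and 2.05 in WT and 1.88, 1.81, 1.72, 1.64 and 1.22 in mINDY-KO mice. Nr1d2 levels were 1.15, 0.98, 1.58, 1.22 and 1.80 in WT and 1.51, 1.45, 1.29, 1.56 and 1.06 in mINDY-KO mice. By these probes WT replicate 5 was the highest mouse and WT replicate 2 the lowest, with mINDY-KO replicate 5 next to it. The genotype differences were 0.09 (SE 0.16, adjusted p = 0.891) for Nr1d1 and 0.03 (SE 0.14, adjusted p = 0.970) for Nr1d2, and their second probes differed by 0.08 (adjusted p = 0.840) and 0.20 (adjusted p = 0.493). The second Nr1d1 probe was again highest in WT replicate 5 and had mINDY-KO replicate 5 as the lowest mouse. The second Nr1d2 probe, detected in 8 mice, ordered them otherwise, with mINDY-KO replicate 5 the highest, WT replicate 5 the third and WT replicate 2 again the lowest.

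Dbp, a PAR bZIP activator that the ARNTL and CLOCK pair drives directly and that binds D-box elements in turn, varied widely in both genotypes. Its levels were 4.88, 4.28, 5.59, 4.87 and 5.16 in WT and 4.98, 4.84, 5.48, 5.50 and 4.39 in mINDY-KO mice. WT replicate 3 and mINDY-KO replicates 3 and 4 were the highest, and WT replicate 2 and mINDY-KO replicate 5 the lowest. The difference was 0.08 (SE 0.23, adjusted p = 0.934).

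**Figure D2:**
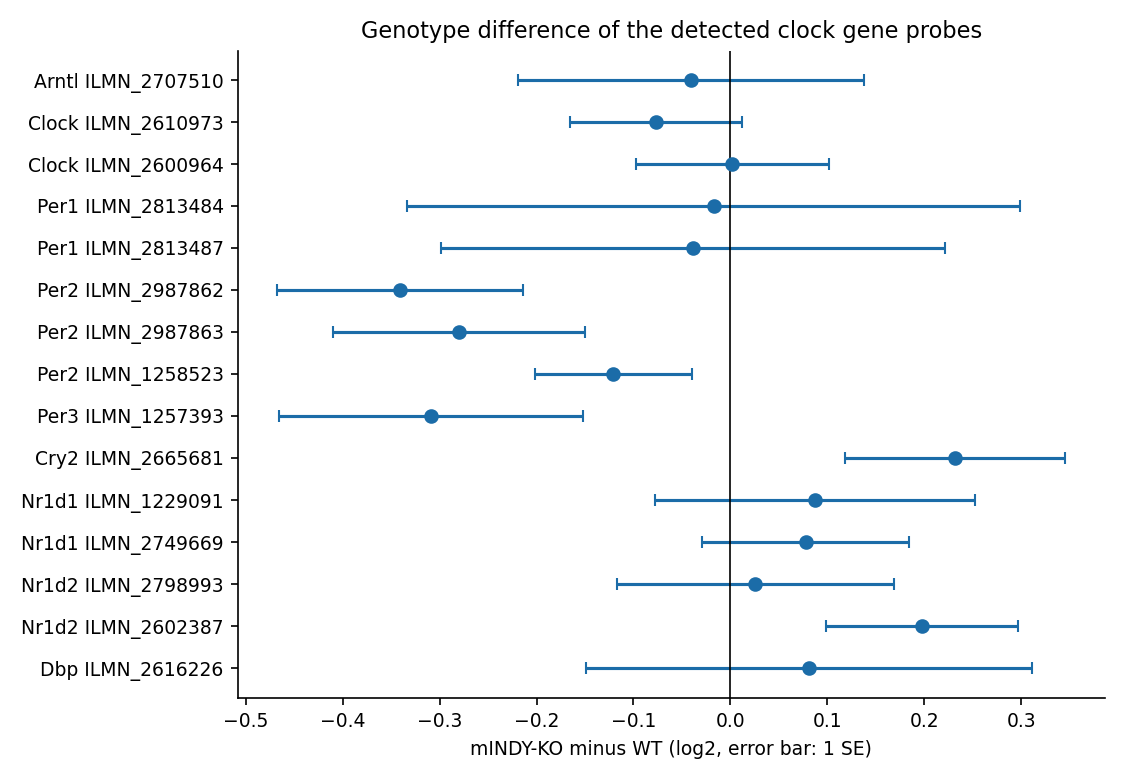
Difference between 5 mINDY-KO and 5 WT mice (log2, mINDY-KO minus WT) for the 15 detected clock gene probes, with error bars of 1 SE from the fit. The 2 brighter Per2 probes lie furthest below 0 beside the Per3 probe at -0.31, and Cry2 lies highest at 0.23.

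Most of the 9 clock genes, each by its brightest probe, varied more between mice of 1 genotype than most probes did. The SD within genotype was 0.66 for Per1, 0.47 for Dbp, 0.36 for Arntl, 0.33 for Nr1d1, 0.31 for Per3 and 0.28 for Nr1d2, against a median of 0.14 over all detected probes. These SDs stood at the 99.9th, 99.5th, 98.5th, 97.7th, 97.1th and 95.5th percentiles of all detected probes. Per2 at the 91.9th and Cry2 at the 85.5th followed, and Clock at the 52.7th was near the middle. The 9 genes were chosen with earlier results of these data known, so a choice blind to their spread cannot be claimed. They also differ in brightness from the average probe, and percentiles were not matched on it. The 2 arrays of WT replicate 1 gave a measure of the error on repeat for a single mouse. They differed by 0.26 for Nr1d2, 0.25 for Per3, 0.21 for Clock and 0.16 for Arntl. The SDs of these genes between mice were 0.28, 0.31, 0.14 and 0.36. A difference between 2 arrays and an SD are unlike measures and were not compared further. For the brightest probes of Per1, Dbp, Per2, Cry2 and Nr1d1 the 2 arrays differed by 0.0088 to 0.08. The second Nr1d1 probe differed by 0.24, and the second Clock and Nr1d2 probes by 0.03 and 0.0035. The difference on repeat thus varied between probes of the same gene. From the lowest to the highest mouse, Dbp levels spanned 2.48-fold, Arntl 2.08-fold and Nr1d1 2.05-fold.

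The balance of activators against repressors differed between genotypes by -0.0049 on average, less than its SD among the mice of either genotype. The mean of Arntl and Clock minus the mean of the 6 detected repressors (Per1, Per2, Per3, Cry2, Nr1d1 and Nr1d2) was 0.53, 0.69, 0.25, 0.40 and 0.52 in WT and 0.64, 0.61, 0.05, -0.01 and 1.06 in mINDY-KO mice. The genotype means were 0.48 ± 0.17 and 0.47 ± 0.45 (SD, n = 5 each), and the mINDY-KO mice held the highest value, in replicate 5, and the 2 lowest, in replicates 3 and 4. Since the score was built from genes picked with their values known, no test was made of it. Its sign turned with the mice included: with 1 mouse left out the difference lay between -0.15 (mINDY-KO replicate 5 absent) and 0.11 (mINDY-KO replicate 4 absent). With both replicates 3 and 4 of that genotype absent it was 0.29, more than the WT SD. Arntl minus Dbp, which shares Arntl with this score, ran from mINDY-KO replicate 5 at -2.51 and WT replicate 2 at -2.69 down to WT replicate 3 at -4.55, mINDY-KO replicate 3 at -4.56 and mINDY-KO replicate 4 at -4.68.

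**Figure D3:**
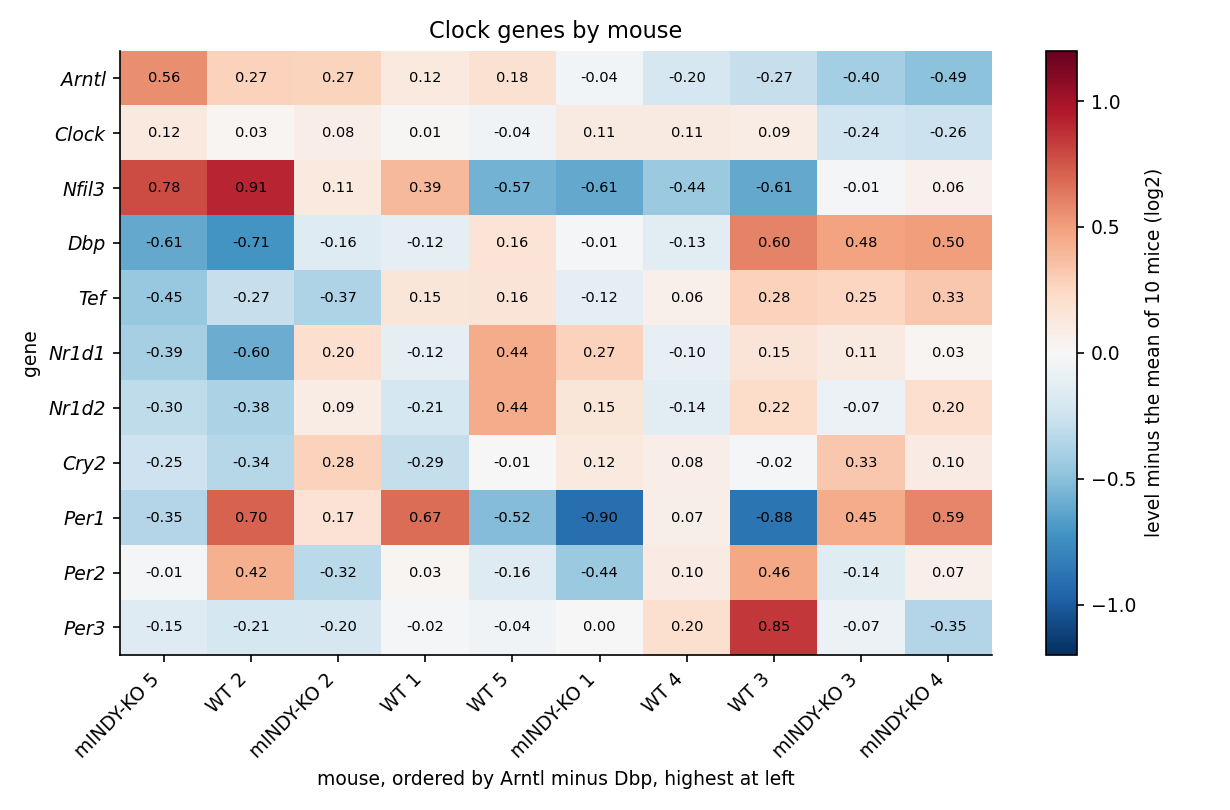
Level of each gene in each mouse minus its mean over the 10 mice (log2, colour and printed value), with the mice ordered from the highest to the lowest Arntl minus Dbp. The order itself sets the course of Arntl and Dbp from left to right; Per1, which it did not use, is high and low at both ends.

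Dbp was the clock gene whose level ran most steeply against Arntl between mice. In a limma fit with genotype and the Arntl level of each mouse as terms, Dbp had a slope of -1.11 per unit of Arntl (SE 0.22, adjusted p = 0.521), the second most negative of 13340 probes by test statistic. The most negative of all was Tef, a PAR bZIP factor of the same family as Dbp, at -0.73 (SE 0.14, adjusted p = 0.521). Neither passed the test, and 0 of 13340 probes (0%) passed in either direction, against 914 (6.85%) at an unadjusted p under 0.05. Without mINDY-KO replicate 3 a single probe passed. Leaving out each mouse in turn kept both slopes negative, between -1.20 and -0.97 for Dbp and between -0.78 and -0.67 for Tef.

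The Tef levels behind this slope were 2.34, 1.92, 2.47, 2.25 and 2.35 in WT and 2.08, 1.82, 2.45, 2.52 and 1.74 in mINDY-KO mice. The 3 mice with the lowest Arntl, mINDY-KO replicates 3 and 4 and WT replicate 3, were the 3 highest for both Tef and Dbp. The 3 mice with the highest Arntl, mINDY-KO replicates 5 and 2 and WT replicate 2, were the 3 lowest for both. Tef followed Dbp with a slope of 0.57 (SE 0.10, adjusted p = 0.650). Between genotypes Tef differed by -0.15 (SE 0.15, adjusted p = 0.768).

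**Figure D4:**
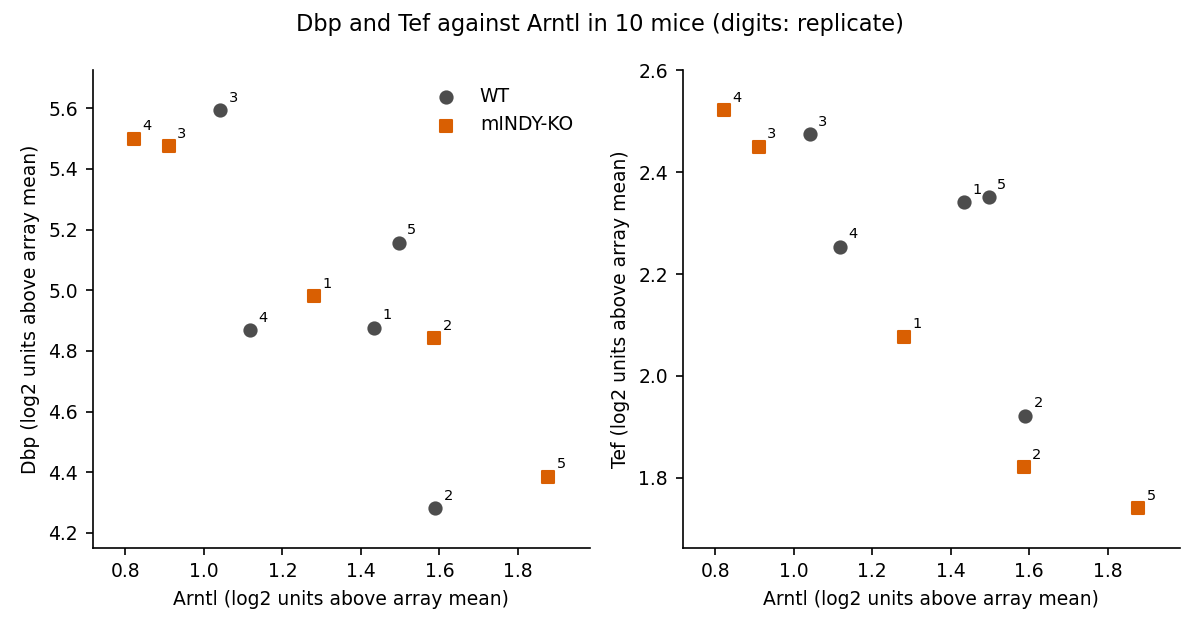
Dbp (left) and Tef (right) against Arntl in 10 mice, all in log2 units above the array mean, with circles for WT, squares for mINDY-KO and the replicate number beside each point. The 3 mice with the least Arntl are the 3 highest for both genes and the 3 with the most Arntl the 3 lowest, while the other 4 mice follow no such order.

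The other members had smaller slopes, none past the test. By the brightest probe of each gene, the 6 detected repressors had a negative slope on Arntl: Cry2 -0.35 (SE 0.16, adjusted p = 0.726), Nr1d1 -0.34, Per3 -0.30 (SE 0.24), Nr1d2 -0.29, Per1 -0.18 (SE 0.51) and Per2 -0.14 (SE 0.20). The second probes of Per1 and Per2 had slopes of 0.0029 and 0.02, so for these genes no sign can be given. Those of Nr1d1 and Nr1d2 had slopes of -0.14 and -0.044. Single mice weighed on the brightest probes: without WT replicate 3 the Per3 slope was -0.058. Without mINDY-KO replicate 5 the slopes were -0.17 for Cry2, -0.045 for Nr1d1 and -0.12 for Nr1d2. Of all probes, 39.9% had a negative slope, and the median slope was 0.04, against -0.30 over the 8 members other than Arntl. Among the brightest probes only that of Clock had a positive slope, 0.25 (SE 0.12, adjusted p = 0.728), which was -0.10 without mINDY-KO replicates 3 and 4. The slopes of the brightest Per1 and Per2 probes turned without those mice too, to 1.39 and 0.13.

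The genes of opposite sign to Dbp included Nfil3 (E4BP4), the repressor that competes with DBP and TEF for the same D-box. Nfil3, which was outside the rule for naming genes and was picked for this role, had a slope of 0.91 on Arntl (SE 0.39, adjusted p = 0.726). Its levels were 1.77, 2.29, 0.77, 0.94 and 0.81 in WT and 0.77, 1.49, 1.37, 1.44 and 2.16 in mINDY-KO mice, highest in WT replicate 2 and mINDY-KO replicate 5. Those are the mice with the least signal of Dbp and of the brightest Nr1d1 and Nr1d2 probes. On Nr1d1 as the reference, Nfil3 had a slope of -1.59 (SE 0.26, adjusted p = 0.149). With each mouse left out in turn, that adjusted p lay between 0.0463, without WT replicate 5, and 0.986.

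By the same fit, the probes nearest to Arntl in the positive direction were Car3 (1.33, a carbonic anhydrase of muscle and fat), Adipoq (1.23, the adipocyte hormone adiponectin), Osbpl6 (0.56), Dnajc2 (0.53), Tmem184c (0.48) and Gdap1 (0.47), with adjusted p-values of 0.521 to 0.551. Car3 and Adipoq turned on mINDY-KO replicate 5, which stood at 1.25 and 1.16 while the other 9 mice lay at or below 0.0017. Without that mouse their slopes were 0.76 and 0.76. The same mouse had the highest mean of the 3 detected adipocyte markers, 0.41, against -0.56 to -0.17 in WT mice; 2 of the 8 markers on the list were detected on no array. Its part in the Arntl level of that mouse was not tested. The negative side, after Tef and Dbp, held B2m (-0.45, the light chain of MHC class I), Irf1 (-0.60, an interferon-response factor), Ptgis (-0.48, prostacyclin synthase) and H2-Ab1 (-0.50, an MHC class II chain), all with an adjusted p of 0.654.

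The sequences that these factors are known to read were looked up in the promoters, as background to the levels above. RefSeq windows (GRCm38.p6) from 250 bases before to 50 bases after each start were found for 9 of the 10 genes, in 13 windows. The motifs were searched on both strands: the E-box CACGTG, read by ARNTL and CLOCK, the D-box TTATGTAA or TTACGTAA, read by DBP, TEF and NFIL3, and the REV-ERB and ROR element, AAN followed by TAGGTCA. The motifs did not overlap each other where they are shown. Of all 32851 windows, 7.15% held the E-box, 1.06% the D-box and 0.219% the REV-ERB and ROR element.

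Of the clock genes, Per1 and Cry1 held an E-box, Per3 held 2 D-boxes and Arntl held 1 REV-ERB and ROR element, in 1 window of each gene. The 2 windows of Tef each held an E-box. They are shown 5′ to 3′ on the strand of the gene, with the motif in capitals, so that the elements of each loop can be seen beside the levels. The Arntl stretch (chr7:113207528-113207557, plus strand) begins 17 bases after the start, in transcribed sequence. The Per1 stretch (chr11:69098756-69098815, plus strand) has its E-box 166 bases before the start. The Per3 stretch (chr4:151044802-151044884, minus strand) has its D-boxes 205 and 158 bases before it, and the Tef stretches (chr15:81802519-81802578 and chr15:81811249-81811308, plus strand) have theirs 127 and 138 bases before each start.
Arntl: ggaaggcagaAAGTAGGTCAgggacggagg
Per1: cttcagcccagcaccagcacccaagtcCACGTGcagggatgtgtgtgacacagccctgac
Per3: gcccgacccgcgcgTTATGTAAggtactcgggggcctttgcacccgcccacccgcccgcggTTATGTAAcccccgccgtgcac
Tef start 1: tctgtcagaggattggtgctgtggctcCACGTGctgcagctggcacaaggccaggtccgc
Tef start 2: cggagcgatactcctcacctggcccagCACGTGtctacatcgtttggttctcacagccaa
Of the genes with an E-box shown, Tef had a slope of -0.73 on Arntl (SE 0.14) and Per1 one of -0.18 (SE 0.51), neither past the test. Dbp, Clock, Cry2, Nr1d1 and Nr1d2 had none of these letters in their windows, which says nothing of elements elsewhere in the gene.

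The steps above were repeated with each other clock gene as the reference, a choice made after the data were seen. Nr1d2 had a slope of 0.77 on Nr1d1 (SE 0.14, adjusted p = 0.266), and Dbp had a slope of 1.01 on Nr1d1 (SE 0.30, adjusted p = 0.815). No probe passed with Per2, Cry2, Nr1d1, Nr1d2 or Dbp as the reference, and at most 3 did when any mouse was left out. With Clock 325 probes passed (2.44%) and with Per3 135 (1.01%), but none without mINDY-KO replicate 4 for Clock and none without WT replicate 3 for Per3. When each mouse was left out in turn, these counts lay between 0 and 421 for Clock and between 0 and 192 for Per3. For Clock they fell to 178 and 141 without WT replicates 2 and 4, and to 31, 32 and 6 without mINDY-KO replicates 1, 2 and 3. For Per3 they fell to 58, 1 and 50 without WT replicates 1, 2 and 5, and to 69 and 22 without mINDY-KO replicates 1 and 4.

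Across mice, the probe that followed Per1 most closely was that of Plk3, a stress-response kinase. With Per1 as the reference, 12 of 13339 probes passed (0.09%), 7 of positive and 5 of negative slope. Plk3 had a slope of 0.65 (SE 0.07, adjusted p = 0.00161). Next came Gadd45b, a growth-arrest and stress gene (1.02, SE 0.13, adjusted p = 0.00679), Sik1, a cAMP-induced kinase (0.96, SE 0.13, adjusted p = 0.00872), Ddit4, an inhibitor of mTORC1 that glucocorticoids induce (0.88, adjusted p = 0.00872), Nr4a2, an immediate early nuclear receptor (0.66, adjusted p = 0.00982), Csrnp1, an immediate early nuclear protein (0.44, adjusted p = 0.0330), and Amotl2, an angiomotin family protein (0.64, adjusted p = 0.0403). The probes with a negative slope past the test were Ebf1, Paip1, Matr3, Irgm1 and Birc2, between -0.47 and -0.37. Since these genes were named after their values were seen, they fall outside the rule for naming genes, and no list of such genes was tested.

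Plk3 levels were 1.46, 1.48, 0.57, 0.80 and 0.69 in WT and 0.18, 0.99, 1.29, 1.17 and 0.59 in mINDY-KO mice. The order was close to that of Per1, with WT replicates 1 and 2 highest and mINDY-KO replicate 1 lowest. Gadd45b levels were 2.99, 3.18, 1.34, 2.10 and 2.47 in WT and 1.66, 2.58, 3.22, 3.20 and 1.82 in mINDY-KO mice. The same 4 mice, WT replicates 1 and 2 and mINDY-KO replicates 3 and 4, were the 4 highest for Per1, Plk3, Gadd45b and Sik1. Of these, mINDY-KO replicates 4 and 3 and WT replicate 1 had the lowest median array signals of all mice. Those medians were 122, 127 and, on its 2 arrays, 150 and 164, against 183 to 238 in the other mice. With the median signal of each mouse as a further term, only 1 probe passed in place of 12. The part of array signal in these slopes was not tested further.

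**Figure D5:**
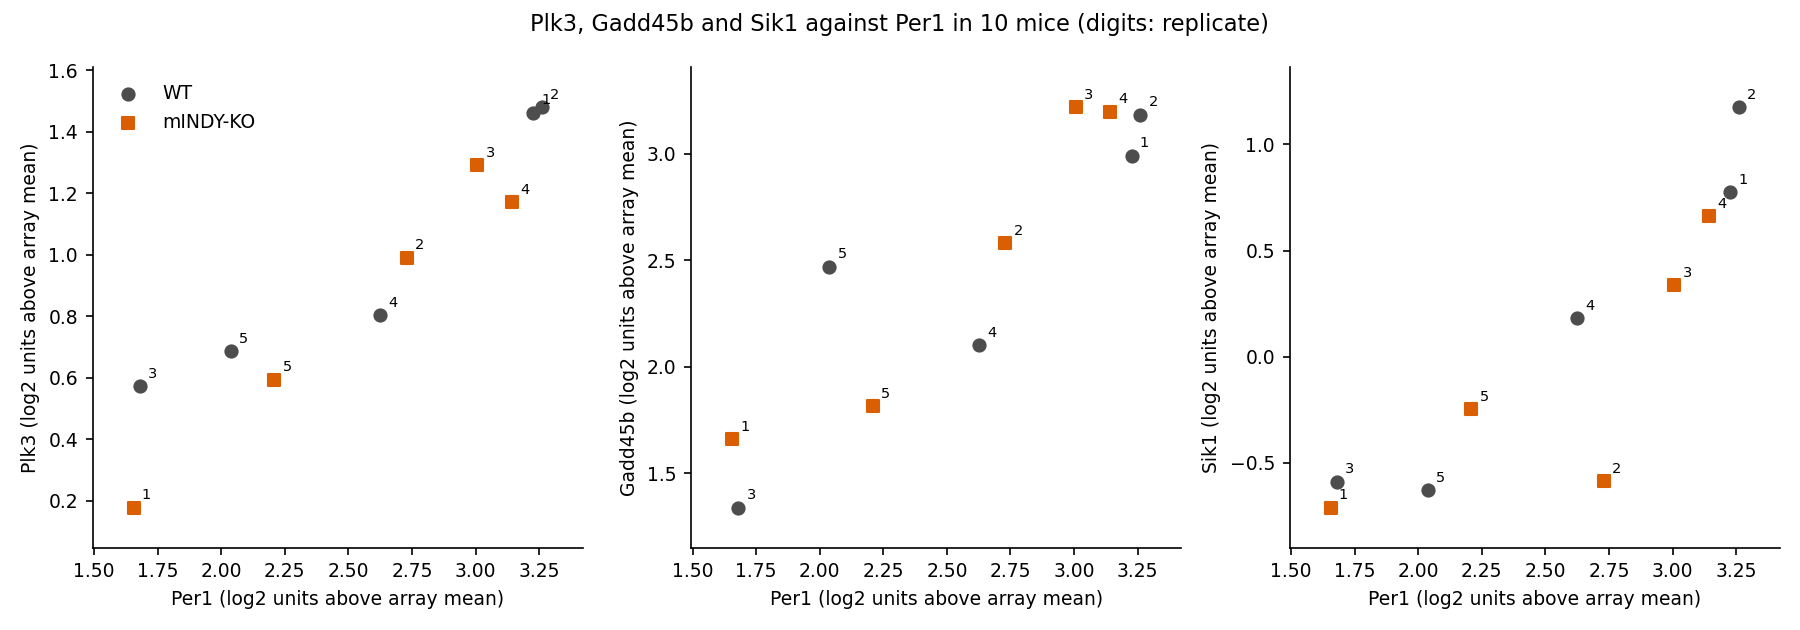
Plk3, Gadd45b and Sik1 against Per1 in 10 mice, all in log2 units above the array mean, with circles for WT, squares for mINDY-KO and the replicate number beside each point. WT replicates 1 and 2 and mINDY-KO replicates 3 and 4 lie at the upper right of each panel, and both genotypes run along the same direction.

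Plk3 stayed past the test when each mouse was left out in turn, with adjusted p-values of 5.50e-04 to 0.0217. The count of 12 did not hold as well: it was 4, 3, 1, 19 and 237 without WT replicates 1 to 5 and 5, 80, 6, 6 and 17 without mINDY-KO replicates 1 to 5. Without the 2 mice farthest from the median Per1 level, mINDY-KO replicate 1 and WT replicate 3, no probe passed and Plk3 had a slope of 0.70 (adjusted p = 0.204).

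The remaining parts of the clock machinery and its outputs showed no gene past the test either. Of 11 other clock transcription factors 7 were detected, 3 higher and 4 lower in mINDY-KO mice (median -0.04), among them Ciart (-0.17), Rora (-0.11), Rorb (0.09) and Tef (-0.15). Of 15 kinases, ligases and cofactors of the clock 11 were detected, 4 higher and 7 lower (median -0.04). Gsk3b, a kinase of several clock proteins, was at -0.27 (adjusted p = 0.405), and Wdr5, a histone methyltransferase subunit found with PER, was at -0.19 (adjusted p = 0.369). Nono and Btrc were at 0.13 and -0.13.

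Of 14 genes that are rhythmic in many tissues 9 were detected, 4 higher and 5 lower (median -0.07). Nampt, the rate-limiting enzyme of NAD salvage, was at 0.29 (adjusted p = 0.399), and Noct (nocturnin), a rhythmic phosphatase, was at -0.34 (adjusted p = 0.446), with Tsc22d3 at -0.14 and Usp54 at -0.08. Noct had a slope of 0.51 on Arntl (adjusted p = 0.694).

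Glucocorticoid-induced genes, steroidogenic genes and genes that follow body temperature were read as 3 further lists. Of 10 glucocorticoid-induced genes 9 were detected, 3 higher and 6 lower, with Fkbp5, a chaperone of the glucocorticoid receptor, at -0.36 (adjusted p = 0.270), Dusp1 at 0.36, Mt2 at -0.11 and a median of -0.11. All 7 steroidogenic genes were detected, 5 higher and 2 lower, with the corticotropin receptor Mc2r at 0.22 (adjusted p = 0.421), Hsd3b1 at 0.25 (adjusted p = 0.430), Star at 0.16 and Cyp11b2 at -0.20.

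Of 8 genes that follow body temperature, which swings daily and can set peripheral clocks, 7 were detected, 5 higher and 2 lower. Cirbp, a cold-inducible RNA-binding protein that binds Clock mRNA, stood at 2.33, 2.37, 2.24, 2.75 and 2.80 in WT and at 3.25, 2.997, 3.18, 3.17 and 2.91 in mINDY-KO mice. Its groups did not overlap, as for 2.06% of all probes, and the difference of 0.60 (SE 0.11, adjusted p = 0.129) did not pass the test. Rbm3, a second cold-inducible RNA-binding protein, was at 0.64 (SE 0.20, adjusted p = 0.271), with WT replicates 1 and 2 at 1.46 and 1.48 and the other 8 mice between 2.34 and 2.78. The heat shock genes Hsph1 and Hspa8 were at -0.29 and -0.09, and Hspa1a, Hsp90aa1 and Dnaja1 at 0.19, 0.03 and 0.0072. Neither cold-inducible gene followed Arntl past the test (Cirbp -0.17, Rbm3 -0.39, adjusted p = 0.885 and 0.839).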

How the data were processed

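Adrenal RNA of 10 mice was measured on Illumina bead arrays of 25697 probes. Per the labels and the study's methods, the authors quantified the arrays in GenomeStudio 2011.1, and the deposited signal (not normalized) with a detection p-value for each probe was used here. The deposited Z score, on a log10 scale, was recomputed from it with differences of at most 0.0102. Z scores were multiplied by 1.57, the mean SD of log2 signals, to give log2 units. All columns of per-sample values were used. Platform symbols named 23978 probes. Probes with a detection p under 0.05 in at least 5 mice were kept (13341), and both arrays of WT replicate 1 were averaged. Genotypes were compared with limma 3.58.1 in R 4.3.3 (lmFit, eBayes, two-sided, Benjamini-Hochberg over all kept probes, in place of the ANOVA of the methods). A second fit held genotype and the Arntl level as terms. On data simulated at the real levels and spreads, with 200 of 13341 probes changed by 1 log2 unit between genotypes, 98.5% were recovered, and 93.5% for a slope of 1 on Arntl, but 13.5% for a slope of 0.5. The simulated noise was independent between probes, and recovery was averaged over all probes, whose spread is mostly below that of most clock genes. These shares are therefore not the power for a clock gene. The number of mice limits the precision.

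The members and the gene lists were chosen with earlier results of these data known. Named genes were all members, up to 4 genes of each list by p and 6 genes in each direction of the Arntl fit. Kidney and liver markers had no detected gene, and the blood, macrophage and endothelial lists had no gene past the test. Alternatives were neqc, quantile normalization, the deposited Z scores, no or a stricter filter, single arrays of WT replicate 1, array weights, an intensity trend, a replicate block, mice left out and the median signal as a term. Same-numbered mice deviated apart rather than together (correlations of -0.30 to -0.11), so numbers were not taken as pairs. Promoter sequences are from RefSeq (GRCm38.p6).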

Additional observations from a re-analysis of the deposited data

Results flagged for a closer look

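In each genotype, a mouse was singled out where its gap to the next mouse took up more of the range of 5 mice than Dixon's limit of 0.71. This was so in 9 of 222 groups, where chance gives about 5%. Each group was a probe, or the balance of activators against repressors, in 1 genotype. One was a clock gene: the second, dimmer Nr1d1 probe stood at 0.95 in WT replicate 5 and at 0.58 in the next WT mouse, a gap of 0.787 of the range. The brighter Nr1d1 and Nr1d2 probes were also highest in that mouse.

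The others came from the lists. Hspa1a, a heat shock gene, was at 2.92 in mINDY-KO replicate 5 against 0.62 in the next mouse (0.84 of the range), the mouse with the highest Arntl and adipocyte marker levels. Dbh, which makes norepinephrine, was highest in the same mouse (0.727). Sgk1 (0.777) was highest in WT replicate 3, Errfi1 (0.802) in WT replicate 2, Tspan4 (0.734) in mINDY-KO replicate 3 and Hsd3b1 (0.757) in mINDY-KO replicate 2. Ddc was highest (0.876) and Emcn lowest (0.74) in WT replicate 1.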

How the results depend on the processing

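No clock gene passed the genotype test, and none the fit on Arntl, under any alternative or with any mouse left out. By the brightest probes, the slopes of Dbp, Tef, Cry2, Nr1d1, Nr1d2 and Nfil3 on Arntl kept their sign throughout (Dbp from -1.76 to -0.82 over the alternatives). Differences and slopes near 0 turned. For Arntl the genotype difference was 2.13e-04 with neqc, 0.0043 with quantile normalization and 0.25 without mINDY-KO replicates 3 and 4. For Dbp these settings gave -0.0074, -0.0078 and -0.22. With the second array of WT replicate 1 alone, the second Clock probe was at -0.0012 and Nr1d2 at -6.53e-04. Without mINDY-KO replicates 3 and 4, Clock was at 0.064 and Nr1d2 at -0.0091, and the slopes on Arntl were -0.10 for Clock, 1.39 for Per1 and 0.13 for Per2. The Per1 slope also turned with neqc (0.047), quantile normalization (0.042), the median signal as a term (0.74, and 0.049 for Per2), Dbp as the reference (0.27) and without the 2 mice farthest in Arntl (0.62). With the replicate block the slopes were 0.56 for Per2 and 0.65 for Per3, and the block changed no call of a clock gene. The cause of these turns was not tested.

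Leaving out each mouse gave genotype differences of -0.19 to 0.078 for Arntl, -0.073 to 0.060 for the second Clock probe, -0.24 to 0.21 and -0.23 to 0.16 for the Per1 probes, -0.051 to 0.21 for Nr1d1, -0.066 to 0.14 for Nr1d2 and -0.087 to 0.24 for Dbp, and Per1 slopes on Arntl of -0.55 to 0.22.

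The 12 probes that followed Per1 became 1 with neqc, 3 with no filter, 19 with a stricter filter, 4 with the replicate block, 2 without mINDY-KO replicates 3 and 4, 1 with the median signal as a term, 4 with the second Per1 probe and 0 without the 2 mice farthest in Per1. Leaving out each mouse gave 1 to 237. These settings were chosen after seeing the data. With 5 mice per genotype, a slope of 0.5 on Arntl is mostly missed.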
